A study of Mus musculus with 42 samples.

Results

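Mouse induced pluripotent stem cells (iPSCs) were exposed to 1 μM bisphenol S (BPS), a substitute for bisphenol A in plastics that can act on hormone signalling, or to its ethanol vehicle. The 6 libraries with these labels, 3 BPS and 3 vehicle, were chosen by their titles from the 42 RNA-seq libraries of the study, and 16349 of the 22186 genes in the table were tested. The male iPSCs were 1 line, reprogrammed with doxycycline from embryonic fibroblasts of a single fetus that carried the tetO-4F2A cassette and R26rtTA, so both groups share these alleles and this 1 origin. They were thawed on feeder cells and then grown without feeders in N2B27 medium with LIF and inhibitors of GSK3 and MEK (2i). Exposure in gassed medium lasted 24 h, in flasks that were sealed, and 24 h of recovery without compound or vehicle followed before harvest. The replicates were flasks of this line, which the study does not define as biological or technical, so p-values here cover no more than the variation from flask to flask, which may be technical.

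Pluripotent cells in 2i hold a naive state in which the factors encoded by Pou5f1, Sox2 and Nanog keep lineage genes low, while WNT signalling is mimicked and ERK signalling is blocked. Such cells can drift toward neighbouring states, among them a primed epiblast state, primitive endoderm (the yolk sac lineage), trophectoderm (the placental lineage) and a rare state that resembles the 2-cell embryo. They are epithelial, so keratins, cell junctions and the actin cytoskeleton, with the transcription factors YAP and AP-1 that respond to cell shape, stretch and growth factors, are also active in them.

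The labelled cell type was checked against marker genes. The 7 iPSC markers summed to 3985 to 4059 counts scaled to a constant library total (CPM) in vehicle and 4011 to 4134 CPM in BPS libraries. Pou5f1 stood at 743 to 750.4 CPM in vehicle and 745 to 832 CPM in BPS, whereas RNA of Fut4 was nearly absent at 0 to 0.111 CPM. The study reports positive antibody staining of its iPSCs for the FUT4 protein. The 9 fibroblast markers summed to 4.07 to 5.16 CPM in vehicle and 5.37 to 8.46 CPM in BPS libraries, the highest in BPS replicate 2, with 4 of 9 high enough to test, none called, and the stromal genes Col3a1, Lum, Postn and Prrx1 at 0 in vehicle replicate 1. Marker sums of 4 other cell types did not overlap between the groups or hardly did. They ran from 8.10 to 9.03 CPM in vehicle and 9.87 to 11.4 CPM in BPS for 6 primitive endoderm markers, from 30.1 to 33.2 and 35.0 to 36.7 CPM for 3 trophectoderm markers, from 46.8 to 52.9 and 52.7 to 65.3 CPM for 4 mesendoderm markers, and from 35.0 to 38.2 and 27.3 to 30.5 CPM for 3 germ cell markers. In each of these sets only 1 marker was called: Dab2, Cdx2 and T rose and Prdm1 fell. Dab2, at 0.143 to 0.774 CPM, was not called without vehicle replicate 1 or 2 or BPS replicate 1 or 3. T, whose groups overlapped, was not called without vehicle replicate 1 or 3 or BPS replicate 3. Taken singly, 27.5% of all genes tested did not overlap between the groups. The 2 neural markers (4 to 5.44 and 4.97 to 5.53 CPM) and 4 markers of the 2-cell-like state (0.643 to 1.28 and 1.06 to 2.49 CPM) overlapped. No marker was at 0 in all 6 libraries, and the part of these cell types in the results below was not tested. In bulk RNA, fewer cells of a type and less RNA per cell cannot be told apart.

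At 1 μM BPS, 917 genes rose and 480 fell at an adjusted p of 0.05 or less (limma, Benjamini-Hochberg), which is 5.61% and 2.94% of the genes tested and 8.54% together. The changes were small: the median log2 fold change was 0.40 among the genes that rose, -0.25 among those that fell and -0.01 over all genes tested, and 271 genes rose but only 41 fell by at least 1.5-fold. A change of at least 2-fold was seen in 63 genes that rose and 7 that fell. The genes that rose were weakly expressed (median 11 CPM) and those that fell strongly expressed (median 51.1 CPM), against a median of 18.2 CPM over all genes tested. Among genes under 5 CPM 5.71% rose and 0.838% fell, and among genes of 100 CPM or more 2.90% rose and 5.09% fell. BPS libraries were deeper, with 34409671 to 36943198 reads against 27782761 to 30991751 in vehicle libraries, and with reads thinned to 1 depth 823 genes rose and 408 fell. The split depended on the scaling, since 78.8% of calls were higher after upper-quartile scaling against 65.6% here, and on single libraries: leaving out vehicle replicate 1 gave 602 calls in all, vehicle replicate 2 gave 675, BPS replicate 3 gave 645 and BPS replicate 2 gave 2134. The spread of each gene was estimated over 4 groups of this experiment, which also held BPS at 50 and 100 μM. A fit of the 6 libraries alone called 723 genes, 496 higher and 227 lower.

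**Figure D1:**
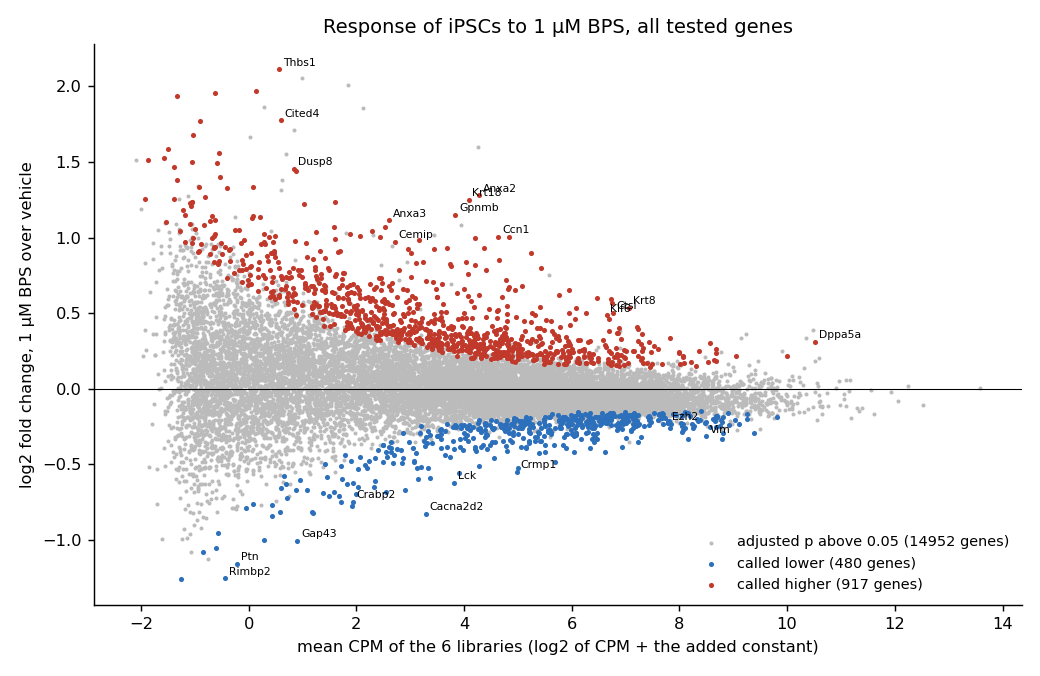
Log2 fold change of 1 μM BPS over vehicle (vertical axis) against mean CPM of the 6 libraries (horizontal axis, log2) for each of the 16349 genes tested, with selected genes named. Red points are the 917 genes that rose and blue points the 480 that fell, and the red points with large changes lie mostly at low CPM.

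Annexins, which bind membranes when calcium rises, and S100 proteins, their small calcium-binding partners, were the list with the largest share of changed members among those described here. Of 17 members tested 8 rose and 0 fell, with a median log2 fold change of 0.42. Over all genes tested 5.61% rose and 2.94% fell, shares that stand beside this and every list count below. The annexin Anxa2 lies on chromosome 9 of GRCm38 from 69453683 to 69491792, and it stood at 9.78, 11.2 and 12.8 CPM in the vehicle libraries and 22.3, 30.9 and 29.1 CPM in the BPS libraries. Every BPS library was above every vehicle library, as for 13.7% of all genes tested (the groups did not overlap for 27.5%, with 13.8% lower), and the log2 fold change was 1.28 (SE 0.13, adjusted p = 7.42e-06). Anxa4, which acts at epithelial membranes, was at 21, 19.8 and 21.6 CPM in vehicle and 32.1, 35.9 and 34.8 CPM in BPS, the steadiest rise of the family (0.72, SE 0.07, adjusted p = 6.24e-06). Anxa3 rose by 1.11, Anxa5, which binds phosphatidylserine, by 0.76, Anxa1, a target of glucocorticoids, by 0.79, S100a6 by 1.07 and S100a1 by 0.83 on the log2 scale. Anxa1 was highest in BPS replicate 2, at 11.1 CPM against 7.23 and 7.98 CPM in the other BPS libraries and 4.40 to 5.70 CPM in vehicle, and without that library its log2 fold change was 0.61. All 21 alternative settings gave 8 or 9 members that rose.

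Keratins of simple epithelia rose as a pair of partners, Krt8 and Krt18, which assemble together into filaments. Krt18 on chromosome 15 (102028216 to 102032026) was at 8.78, 8.96 and 12.6 CPM in vehicle and 21, 26.1 and 24.4 CPM in BPS (log2 fold change 1.25, SE 0.17, adjusted p = 1.42e-04). Krt8, on the same chromosome (101996711 to 102004342), was at 109, 108 and 111 CPM in vehicle and 144, 172 and 161 CPM in BPS (0.53, SE 0.07, adjusted p = 9.24e-05). Krt19 rose by 0.78, the epithelial transcription factor gene Elf3 by 0.22 and the tight junction gene Cldn4 by 0.24, whereas Esrp1, a splicing factor of epithelial cells, fell by 0.38 on the log2 scale. Of 26 keratin and junction genes tested 5 rose and 1 fell (median 0.08), and 3 rose when either of vehicle replicates 1 and 2 or BPS replicate 3 was left out. Vim, the intermediate filament protein of mesenchymal cells, went the other way, from 408, 404 and 391.9 CPM to 334, 334 and 302 CPM (-0.31, SE 0.06, adjusted p = 0.00216).

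The actin cytoskeleton list held 43 tested genes, of which 9 rose and 2 fell (median 0.07). Gsn, which severs filaments, rose from 5.66 ± 1.14 to 10.5 ± 0.635 CPM (SD, n = 3), Lcp1, which bundles them, from 24.0 ± 1.70 to 37.8 ± 3.36 CPM, and the LIM protein gene Pdlim7 from 13.3 ± 0.684 to 18.8 ± 0.940 CPM. Without BPS replicate 2 there were 15 members that rose, without vehicle replicate 2 there were 5, and 0 fell without any 1 of the vehicle replicates or BPS replicate 3 and 1 without BPS replicate 1 or 2. Among 19 YAP and TEAD genes 7 rose and 1 fell (median 0.13), with 6 of the 13 tested targets higher, and 4 rose without vehicle replicate 1 or BPS replicate 3. Ccn1, a secreted matrix protein and classical YAP target, was at 12.5, 16.8 and 20.6 CPM in vehicle and 27.5, 32.9 and 39.0 CPM in BPS (log2 fold change 1.01, SE 0.18, adjusted p = 0.0015). Its relative Ccn2 was at 27.0, 29.4 and 37.4 CPM in vehicle and 44.3, 55.5 and 63.2 CPM in BPS (0.80, adjusted p = 0.00128). Nt5e, an enzyme at the cell surface that makes adenosine, varied little in vehicle, at 9.64, 9.93 and 9.87 CPM, and stood at 15.8, 17.4 and 18.6 CPM in BPS (0.81, adjusted p = 7.42e-06). Both Ccn1 and Ccn2 were highest in vehicle replicate 3 among vehicle libraries and in BPS replicate 3 among BPS libraries.

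AP-1 factors and other immediate early genes, which cells switch on within minutes of a stimulus, spread widely within the groups. Of 17 tested, 3 rose and 0 fell (median 0.14), and the count was 1 without vehicle replicate 1, 6 without vehicle replicate 3 and 7 without BPS replicate 1. Jun was at 13.1, 17.4 and 27.8 CPM in vehicle and 31.5, 34.5 and 46.9 CPM in BPS (log2 fold change 1.00, SE 0.21, adjusted p = 0.00676, and adjusted p = 0.0561 without vehicle replicate 1). Klf6 was at 77.5, 81.7 and 91.5 CPM in vehicle and 108, 117 and 126 CPM in BPS (0.49, adjusted p = 5.33e-04). Egr1, which ranged from 2.89 to 18.7 CPM in vehicle and from 14.8 to 47.8 CPM in BPS, did not pass the test (1.6, SE 0.59, adjusted p = 0.0995), and its groups overlapped. Of 17 feedback and target genes of the ERK pathway 3 rose, or 1 without vehicle replicate 2, namely Phlda1 (0.98), the urokinase receptor gene Plaur (0.46) and Spry2, an inhibitor of the pathway (0.21), and 0 fell. Plaur was not called without vehicle replicate 2, nor Spry2 without vehicle replicate 1 or 2 or BPS replicate 3.

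**Figure D2:**
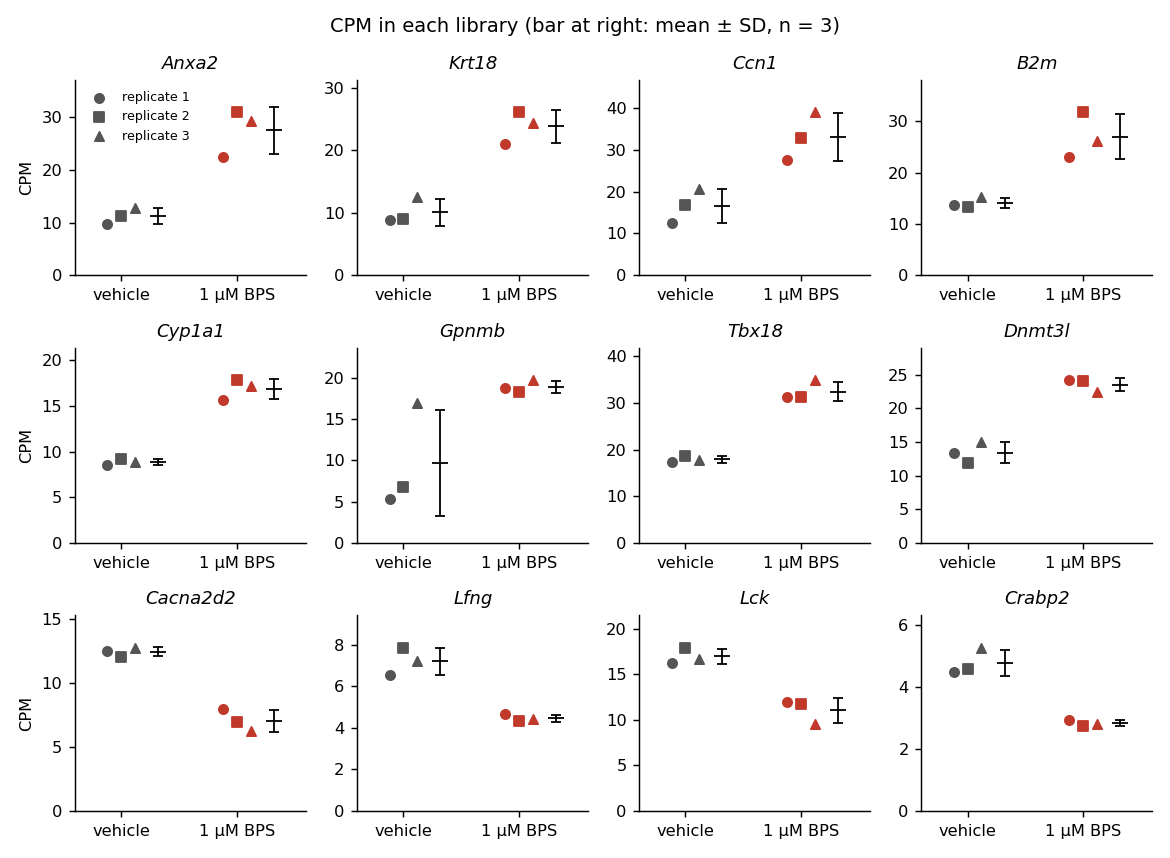
CPM (vertical axes, starting at 0) of 12 genes in the 3 vehicle libraries (grey) and the 3 libraries at 1 μM BPS (red), with the marker shape giving the replicate number and the bar beside each group the mean ± SD. The groups do not overlap for any of these 12 chosen genes, nor for 27.5% of all genes tested, and the Gpnmb vehicle group reaches from 5.35 to 17.0 CPM.

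The promoters of 4 of these genes are shown, chosen after the matches were seen, as examples that hold a motif of AP-1, TEAD or the aryl hydrocarbon receptor. They are RefSeq sequences on GRCm38.p6, the 250 bases before the transcript start that the promoter table uses, on the gene's strand, with matches in capitals: chr9:69453433-69453682 on the plus strand for Anxa2, chr3:145649986-145650235 on the minus strand for Ccn1, chr9:57697363-57697612 on the plus strand for Cyp1a1, a xenobiotic-metabolizing enzyme, and chr9:107399630-107399879 on the plus strand for Cacna2d2, which fell.
Anxa2: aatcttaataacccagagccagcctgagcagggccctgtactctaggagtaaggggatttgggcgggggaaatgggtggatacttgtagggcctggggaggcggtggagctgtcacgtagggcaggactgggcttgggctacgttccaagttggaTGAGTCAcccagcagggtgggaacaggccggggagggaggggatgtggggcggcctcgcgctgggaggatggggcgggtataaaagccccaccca
Ccn1: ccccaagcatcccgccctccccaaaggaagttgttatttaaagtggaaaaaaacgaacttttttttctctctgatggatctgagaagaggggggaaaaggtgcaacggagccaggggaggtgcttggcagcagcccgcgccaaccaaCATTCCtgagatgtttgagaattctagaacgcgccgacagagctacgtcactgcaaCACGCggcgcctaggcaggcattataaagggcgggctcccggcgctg
Cyp1a1: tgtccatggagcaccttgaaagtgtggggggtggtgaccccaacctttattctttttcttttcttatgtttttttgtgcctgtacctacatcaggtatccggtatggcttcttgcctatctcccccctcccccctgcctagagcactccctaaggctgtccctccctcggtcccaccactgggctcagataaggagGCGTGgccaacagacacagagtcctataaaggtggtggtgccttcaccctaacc
Cacna2d2: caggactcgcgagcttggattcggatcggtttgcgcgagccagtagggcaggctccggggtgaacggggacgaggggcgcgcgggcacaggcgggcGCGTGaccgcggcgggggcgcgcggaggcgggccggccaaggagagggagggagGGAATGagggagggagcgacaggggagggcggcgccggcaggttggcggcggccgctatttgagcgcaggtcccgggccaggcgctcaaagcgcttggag
The transcript start in the table lies inside the annotated gene for Cyp1a1, whose span begins at 57687928, and for Cacna2d2, whose span begins at 107399733. The match in Anxa2 begins 95 bases before the start and fits the AP-1 motif TGANTCA. Ccn1 holds the TEAD motif GGAATG, read on the other strand, at 103 bases and the core of the xenobiotic response element, GCGTG, also on the other strand, at 47 bases before the start. Cyp1a1 holds GCGTG at 54 bases, and Cacna2d2 holds it at 154 bases and GGAATG at 100 bases. Of 4 other promoters that were read, Krt18 held GCGTG at 143 and 61 bases and AGGTCA, an arm of the estrogen response element, at 108 bases, Lfng held GCGTG at 54 and 46 bases, Krt8 held AGGTCA at 225 bases and B2m held no match. Such matches are common: among 11950 genes tested with a RefSeq promoter of 300 bases (250 before and 50 after the start), 6.14% held TGANTCA, 14.9% GGAATG and 53.1% GCGTG on either strand, while 15.4% held AGGTCA and 0.0335% the full palindromic element, which overlaps the single one. These shares were not tested against those of the genes that rose or fell. A promoter was at hand for 73.1% of the tested, 74% of the higher and 72.1% of the lower genes, so such a test would leave out the rest.

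Genes of pluripotency and of alternative fates came in short lists. Their counts stand beside 5.61% that rose and 2.94% that fell over all genes tested. Of 25 naive pluripotency genes 1 rose and 1 fell (median 0.00), which were Dppa5a, from 1347, 1325 and 1252 CPM to 1433, 1853 and 1612 CPM, and Dppa3, a maternal factor, from 36.4, 37.7 and 39.0 CPM to 26.4, 35.1 and 29.6 CPM. Neither of these was called without vehicle replicate 2 or vehicle replicate 3, and Dppa3 was not called without BPS replicate 1 or 3 either. Of 15 primed epiblast genes 1 rose and 3 fell, among them Zic5 (-0.31, called without BPS replicate 1 but lost without any other 1 library), and 1 fell without any 1 of the vehicle replicates or BPS replicate 3. Of 12 trophectoderm genes 4 rose and 1 fell (median 0.41). Cdx2, the factor that specifies that lineage, was at 5.64, 4.83 and 4.27 CPM in vehicle and 6.18, 7.39 and 8.18 CPM in BPS (log2 fold change 0.56, SE 0.13, adjusted p = 0.0138), and Ascl2 rose by 0.57, but Tfap2c, which acts in trophectoderm and in germ cells, fell from 61.1, 56.4 and 62.4 CPM to 48.9, 39.2 and 41.2 CPM (-0.48, adjusted p = 3.13e-04). Of 14 primitive endoderm genes 3 rose and 1 fell, with 1 higher when either of vehicle replicates 1 and 2 or BPS replicate 3 was left out. Of 6 tested genes of the 2-cell-like state 0 were called, although their median log2 fold change was 1.06, and without BPS replicate 2 there were 3 that rose and 1 that fell. The levels were low. Zscan4c, for example, was at 0.321, 0.433 and 0.767 CPM in vehicle and 0.810, 0.503 and 1.08 CPM in BPS, with overlapping groups.

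The genes that fell farthest, named by the size of the decrease, had varied roles, several of them known from neurons. Cacna2d2, an auxiliary protein of voltage-gated calcium channels, was at 12.5, 12.1 and 12.8 CPM in vehicle and 7.96, 6.95 and 6.22 CPM in BPS (log2 fold change -0.83, SE 0.11, adjusted p = 1.56e-04). The neural cell adhesion gene Ncam1 was at 13.2, 11.5 and 10.9 CPM in vehicle and 8.58, 8.04 and 8.01 CPM in BPS (-0.52, adjusted p = 0.00214). Crmp1, which guides growth cones, changed by -0.55, the neurofilament-like gene Ina by -0.51, and, among genes under 5 CPM, the growth cone gene Gap43 by -1.01, the RNA-binding protein gene Elavl3 by -0.82, the growth factor gene Ptn by -1.16 and the synaptic gene Rimbp2 by -1.25, of which Ptn was not called without vehicle replicate 2 or 3 or BPS replicate 3. Other large decreases were in Lfng, which modifies Notch receptors (6.57, 7.86 and 7.23 CPM in vehicle and 4.67, 4.35 and 4.42 CPM in BPS, -0.68, adjusted p = 7.19e-04), and in Lck, a tyrosine kinase best known from T cells (16.3, 17.9 and 16.7 CPM against 11.9, 11.8 and 9.50 CPM, -0.62, adjusted p = 2.01e-04). The forkhead gene Foxr2 changed by -1.0 (not called without vehicle replicate 1 or 3 or BPS replicate 3), Foxn4 by -1.08 (not called without any 1 of the BPS replicates), the growth factor gene Fgf17 by -0.60, Zmat4 by -0.59, Hesx1 by -0.52, Pdzd4 by -0.52, Tarsl2 by -0.65, the nucleobase transporter gene Slc23a4 by -0.61 and Fkbp11 by -0.49 (not called without vehicle replicate 1 or BPS replicate 3), and the NODAL antagonist Lefty1 by -0.56. In the separate list of 9 tested neural transcription factors and markers 0 rose and 2 fell (median -0.12), with 1 lower when either of vehicle replicates 1 and 2 or BPS replicate 3 was left out. The tubulin genes followed no common direction, as Tubb3, the neuronal isotype, fell (-0.29) and Tubb6 rose (0.40), the only calls among 18.

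Carriers of vitamin A and its derivatives fell, while an enzyme and a target of the pathway rose. Crabp2, which carries retinoic acid to its receptors, was at 4.50, 4.60 and 5.26 CPM in vehicle and 2.94, 2.75 and 2.82 CPM in BPS (log2 fold change -0.75, SE 0.13, adjusted p = 0.00136), and Crabp1, a related carrier, changed by -0.58 (adjusted p = 0.0392). Cdx1, a homeobox target of retinoic acid and WNT, rose from 38.2, 40.2 and 38.4 CPM to 50.2, 54.8 and 55 CPM (0.45, adjusted p = 9.24e-05) and the reductase gene Dhrs3 rose by 0.74, the last not called without vehicle replicate 2. In all 2 of 14 genes of the list rose and 3 fell. Without any 1 library other than BPS replicate 2, 1 gene of the list fell, and without BPS replicate 2 there were 2.

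Of 43 lysosomal genes tested 12 rose and 1 fell (median 0.12), where 5.61% of all genes tested rose and 2.94% fell. Of the hydrolases, 6 of 20 were among those that rose. The cathepsin gene Ctsl was at 88.2, 87.6 and 94.6 CPM in vehicle and 113, 140.0 and 131 CPM in BPS (log2 fold change 0.50, SE 0.07, adjusted p = 1.37e-04), the hexosaminidase gene Hexa rose by 0.36, the glucuronidase gene Gusb by 0.37 and Psap, which encodes the saposins, by 0.26. The count was 6 without vehicle replicate 1 and 5 without vehicle replicate 2 or BPS replicate 3. Gpnmb, a glycoprotein of lysosomes and melanosomes that was named for its size of change, was at 5.35, 6.73 and 17.0 CPM in vehicle and 18.7, 18.2 and 19.7 CPM in BPS. Vehicle replicate 3 lay close to the BPS libraries for it, and the log2 fold change of 1.15 (SE 0.28, adjusted p = 0.0143) was not called without vehicle replicate 1 (adjusted p = 0.107) or vehicle replicate 2 (adjusted p = 0.0826).

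Genes of antigen presentation, of glutathione metabolism, of the p53 response and of glycolysis and hypoxia each held a few members that rose. Beside them stand 5.61% that rose and 2.94% that fell over all genes tested. B2m, the light chain of class I molecules, was at 13.7, 13.3 and 15.2 CPM in vehicle and 23.1, 31.7 and 26.2 CPM in BPS (log2 fold change 0.93, SE 0.10, adjusted p = 1.13e-05), and the heavy chain genes H2-D1 and H2-K1, whose reads may be shared between near-identical copies, rose by 0.77 and 0.56, of which H2-K1 was called only as long as every library other than vehicle replicate 1 was in the fit. Of 18 genes of interferon and antigen presentation 4 rose and 0 fell, but 2 rose without BPS replicate 3, 4 rose and 4 fell without BPS replicate 2, and 6 rose and 4 fell with the length trend of each library removed. Of 31 genes of NRF2 and glutathione 7 rose and 1 fell, led by the transferase genes Gsto1 (0.55) and Gstm2 (0.30, not called without vehicle replicate 1), and 2 rose without vehicle replicate 1 and 4 without vehicle replicate 2. Of 29 p53 targets 5 rose and 0 fell, including the kinase gene Plk2, from 79.6, 84.4 and 97.7 CPM to 127, 124 and 135 CPM (0.56, adjusted p = 9.01e-05), and the cell cycle inhibitor gene Cdkn1a (0.18), with 1 higher without vehicle replicate 1 or BPS replicate 3 and 2 without vehicle replicate 2, Cdkn1a being lost in all of these. Of 32 glycolysis and hypoxia genes 6 rose and 0 fell, with Pfkm at 0.35, Egln3 at 0.30, Bnip3 at 0.73 and Eno2 at 0.58, and each library left out in turn gave 5 or 6. Against these, 4 of 33 chaperone genes fell and 1 rose. The endoplasmic reticulum stress gene Herpud1 went from 20.9, 20.7 and 20.5 CPM to 16, 16.3 and 15.3 CPM (-0.38, adjusted p = 0.00216), Pdia4 changed by -0.21 and Hyou1 by -0.25, and Hspb8 rose by 0.31, of which Pdia4 and Hyou1 were not called without vehicle replicate 1 or 2, nor Pdia4 without BPS replicate 3. The lower chaperone genes were 1 without vehicle replicate 1 or 2, 2 without BPS replicate 3 and 8 without BPS replicate 2.

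**Figure D3:**
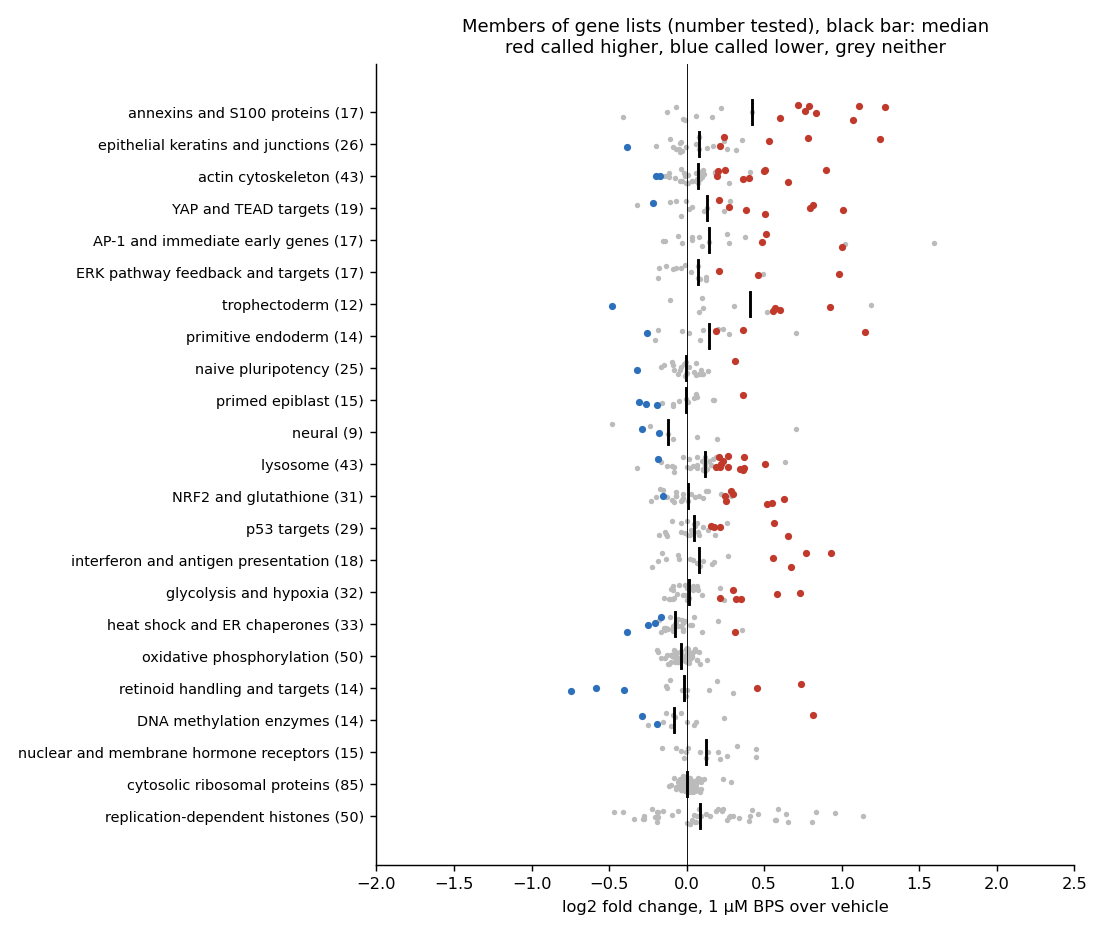
Log2 fold change of 1 μM BPS over vehicle (horizontal axis) for each tested member of 23 gene lists (rows, with the number tested), in red where it rose, in blue where it fell and in grey otherwise, and a black bar at the list's median. Annexins and S100 proteins have a median of 0.42, whereas oxidative phosphorylation and ribosomal protein genes hold no coloured point.

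Other groups held few calls or none. None of the 50 oxidative phosphorylation genes, 85 cytosolic ribosomal protein genes, 50 replication-dependent histone genes or 15 hormone receptor genes was called, with medians of -0.04, 0.01, 0.09 and 0.12. Without BPS replicate 2, 10 oxidative phosphorylation, 6 ribosomal protein and 7 histone genes fell and 2 hormone receptor genes rose. In that setting 6.38% of all genes tested fell and 6.71% rose, and 16.7% of genes of 100 CPM or more fell. The progesterone receptor gene Pgr (0.45, adjusted p = 0.081) and the glucocorticoid receptor gene Nr3c1 (0.21, adjusted p = 0.13) had the smallest adjusted p among the nuclear receptors. Among 14 DNA methylation genes Dnmt3l, the cofactor of the de novo methyltransferases, rose from 13.3, 11.9 and 15.0 CPM to 24.2, 24.0 and 22.4 CPM (0.82, SE 0.10, adjusted p = 3.89e-05), while Uhrf2 (-0.29) and the methyltransferase gene Dnmt3b (-0.19) fell, with 1 gene of the list lower without any 1 of the vehicle replicates or BPS replicate 3. Ezh2, the Polycomb methyltransferase, was the only call among 28 Polycomb and trithorax genes, at 245, 244 and 229.8 CPM in vehicle and 204, 203 and 206 CPM in BPS (-0.23, adjusted p = 0.0107, and adjusted p = 0.0648 and 0.0591 without vehicle replicate 1 and 2). Of 230 solute carrier genes 17 rose and 11 fell, with the iron exporter gene Slc40a1 at 1.04 and the metal importer gene Slc39a14 at -0.41, and of 380 Zfp zinc finger genes 11 rose and 10 fell, among them Zfp57, a guardian of imprinted methylation, at 0.30. Beside these counts stand 5.61% that rose and 2.94% that fell over all genes tested. Of the solute carriers 9, 10 and 7 rose and 6, 7 and 6 fell when vehicle replicate 1, vehicle replicate 2 or BPS replicate 3 was left out, and 26 without BPS replicate 2. Of the zinc finger genes 3, 5 and 3 rose and 1, 3 and 2 fell when these were left out in the same order, and 24 fell without BPS replicate 2.

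Other genes were named for a small adjusted p. Dmgdh, a mitochondrial enzyme of choline breakdown, was among the 10 genes with the smallest adjusted p, at 36.0, 34.6 and 33.2 CPM in vehicle and 49.3, 49.7 and 52.4 CPM in BPS (log2 fold change 0.54, SE 0.05, adjusted p = 6.24e-06). It lies on chromosome 13 beside Bhmt and Bhmt2, which transfer methyl groups to homocysteine, and the 3 genes, from 93616891 to 93752823 on GRCm38, were neighbours in the order of tested genes and all rose. Bhmt was at 5.10, 7.19 and 5.99 CPM in vehicle and 9.58, 10.7 and 10.1 CPM in BPS (0.74, adjusted p = 2.01e-04), and Bhmt2 changed by 0.61 (adjusted p = 1.54e-04). Bhmt and Bhmt2 are similar in sequence, so their reads may be shared. Acsf2, an acyl-CoA synthetase, went from 9.85, 9.89 and 9.06 CPM to 17.4, 15.7 and 18.2 CPM (0.83, adjusted p = 6.24e-06), the fatty acid binding protein gene Fabp3 rose by 0.62 and the lipid droplet gene Plin2 by 0.50. Bhmt, Bhmt2, Fabp3 and Plin2, like Egr1, Zscan4c, Elf3 and Cldn4 above, were singled out after their values were seen. Tbx18, a developmental T-box factor with the smallest adjusted p of all, was at 17.3, 18.7 and 17.8 CPM in vehicle and 31.2, 31.2 and 34.9 CPM in BPS (0.85, SE 0.07, adjusted p = 4.60e-06), and Tmc4, an ion channel gene, at 8.00, 7.03 and 7.23 CPM against 13.2, 13.5 and 15.8 CPM (0.93, adjusted p = 1.72e-05). Cemip, which degrades hyaluronan, rose by 0.97 and Cyba, part of an enzyme that makes superoxide, by 0.99.

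Among genes under 5 CPM a large increase was in Thbs1, a secreted matrix glycoprotein, at 0.357, 0.533 and 0.731 CPM in vehicle and 2.02, 2.72 and 2.35 CPM in BPS (log2 fold change 2.11, SE 0.25, adjusted p = 4.65e-05). Cited4 rose by 1.78, Gbp2, an interferon-induced GTPase, by 1.77, Lhfp by 1.56 and Dusp8, a phosphatase of stress kinases, by 1.45, the last at 1.94 CPM in vehicle replicate 3 against 0.5 and 0.699 CPM in the other vehicle libraries. Dusp8 was not called without vehicle replicate 1 (adjusted p = 0.0599). Fold changes of such genes are understated by the CPM of 0.0313 that was added before the logarithm.

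The 3 BPS libraries were less alike than the vehicle libraries, and BPS replicate 2 differed from its group along transcript length. The median absolute log2 difference of a gene from the mean of the other 2 libraries of the group was 0.113, 0.145 and 0.0817 for BPS replicates 1, 2 and 3, against 0.0652 to 0.0763 in vehicle. In BPS replicate 2 genes with transcripts under 1 kb were higher than in replicates 1 and 3 by a median of 0.25 on the log2 scale, and genes of 8 kb and over changed by a median of -0.23, with the classes between them in order. The slope of this difference on log2 transcript length was -0.12 in BPS replicate 2, 0.07 and 0.05 in BPS replicates 1 and 3, and between -0.00383 and 0.00461 in the vehicle libraries, over genes of at least 5 CPM. BPS replicate 2 is part of the reference for replicates 1 and 3, so it enters their differences and slopes as well. Ribosomal protein genes, which have short transcripts, took 5.32% of its reads against 4.35% and 4.55% in the other BPS libraries and 4.57 to 4.60% in vehicle.

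The genes that stood farthest from the other BPS libraries followed this order. Of the 100 that lay farthest above replicates 1 and 3, 44 of 93 with a known length were under 1 kb, and of the 100 farthest below, 68 of 99 were 8 kb or longer. Rps27, a ribosomal protein gene, was at 54.9 CPM in BPS replicate 2 against 33.5 and 39.8 CPM in replicates 1 and 3 and 39.9 to 42.1 CPM in vehicle, and the histone gene H2ac24 was at 48.5 CPM against 31.5 and 32.9 CPM. The long genes went the other way. Ago2, the effector of microRNA silencing, was at 80.5 CPM against 150.0 and 131 CPM, Fat1, a giant protocadherin, at 222 CPM against 368 and 345 CPM, and Fn1, fibronectin, at 1134 CPM against 1757 and 1698 CPM. Of these 200 genes 3 were called higher and 2 lower at 1 μM, where 8.54% of all genes tested were called. The 200 were chosen for a wide spread within the BPS group, which by itself makes a call less likely. Over all calls BPS replicate 2 sat with its group: on a scale where 0 is the vehicle mean and 1 the BPS mean of the called genes, it lay at 1.04, BPS replicates 1 and 3 at 0.915 and 1.04, and vehicle replicates 1, 2 and 3 at -0.085, -0.0313 and 0.116, values that the choice of these genes itself sets apart.

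**Figure D4:**
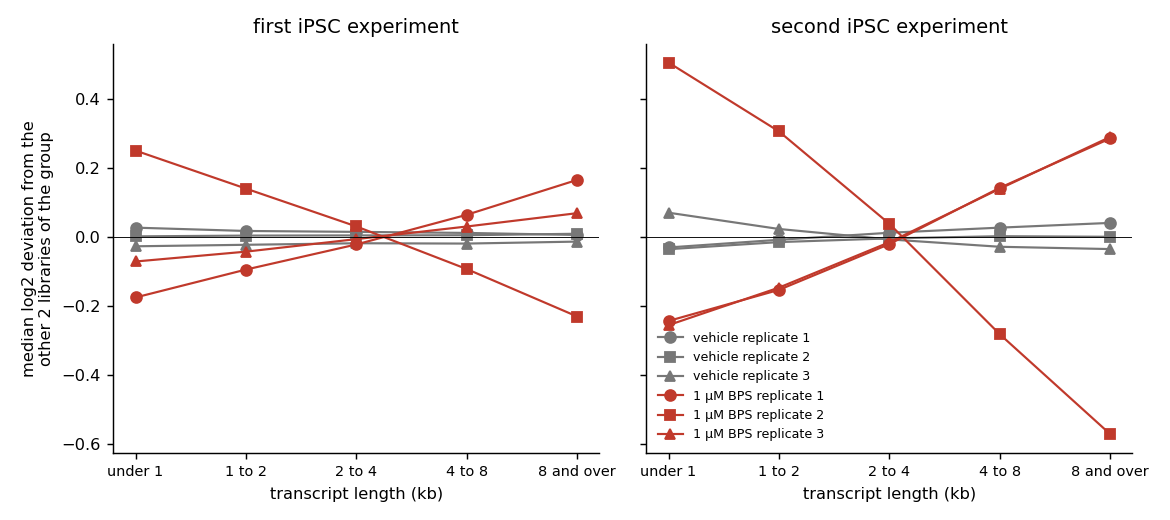
Median log2 deviation of each library from the other 2 of its group (vertical axis) in 5 classes of transcript length (horizontal axis, kb), for vehicle (grey) and 1 μM BPS (red) libraries of the first and the second iPSC experiment. BPS replicate 2 falls from 0.25 to -0.23 in the first experiment and from 0.50 to -0.57 in the second, while the vehicle libraries stay near 0.

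Leaving out BPS replicate 2 gave 1094 genes that rose (6.71% of those tested) and 1040 that fell (6.38%), and 789 of the 917 and 370 of the 480 genes were called the same way again. Among genes under 1 kb 5.50% fell without this library and 1.04% with it, and among genes of 100 CPM or more 16.7% and 5.09%. Subtracting the length trend of each library, a setting chosen after the values were seen, gave 1181 that rose (7.22%) and 809 that fell (4.95%), with 916 of the 917 and 467 of the 480 genes called again. Principal components of the 500 most variable genes placed another library apart. Component 1 (42.2% of the variance) put the vehicle libraries at 15.7, 5.71 and 3.19 and the BPS libraries at -14.1, -11.4 and 0.908, and component 2 (24.7%) put BPS replicate 3 at -16.5 and the others between 0.405 and 7.56. The share of structured RNAs also varied within both groups. It was 0.480% of reads in BPS replicate 1, 0.236% in replicate 2 and 0.0556% in replicate 3, against 0.0712 to 0.295% in vehicle, and Rn7sk, the RNA that restrains transcription elongation, was at 45.2, 22.2 and 2.29 CPM in BPS. With this share as a covariate 1139 genes were called. The part of these library differences in single calls was otherwise not tested.

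A second iPSC experiment of the study repeated the exposure at 1 μM with 3 BPS and 3 vehicle libraries that are not among those above. BPS replicate 2 of that experiment lay far from its group. Its median absolute log2 difference from the other 2 libraries was 0.277, against 0.162 and 0.157 for BPS replicates 1 and 3 and 0.0627 to 0.0739 in vehicle. The values of replicates 1 and 3 include replicate 2 in their reference. Over genes with at least 20 reads in a pair, the mean chi-square of reads between BPS replicates 1 and 3 was 5.9. It was 57.8 and 55.7 for each of them with BPS replicate 2 and 3.14 to 6.61 between vehicle libraries. As in the first experiment, BPS replicate 2 was high for short and low for long transcripts. Its median deviation went from 0.50 under 1 kb to -0.57 at 8 kb and over. This spread, and the length trend in BPS replicate 2 of both experiments, enter the fold changes below. Their part in the calls of each experiment and in the shared directions was not tested. In a joint fit of 16233 genes, 300 genes (1.85%) were called in the first and 51 (0.314%) in the second experiment, with 219 higher (1.35%) and 81 lower (0.499%) in the first and 48 higher (0.296%) and 3 lower (0.0185%) in the second. Of these 51 genes 45 were called in the same direction in the fit of the first experiment alone, which is 88.2% of the 51 and 3.22% of the 1397 genes called there. The changes in the 1397 genes of that fit can be set beside those of the second experiment. Of the 904 genes that rose and were tested in both, 833 (92.2%) lay above 0 in the second, and of the 480 genes that fell 436 (90.8%) lay below 0, where 51.1% of all genes tested in both lay above 0. Of all 16053 genes tested in both, called or not, 10695 (66.6%) changed in the same direction in the 2 experiments. The median log2 fold change in the second experiment was 0.24 for the genes that rose in the first and -0.18 for those that fell. Cyp1a1 had the smallest adjusted p there, at 6.51, 5.84 and 5.40 CPM in vehicle and 14, 15 and 12.7 CPM in BPS (1.23, SE 0.09, adjusted p = 1.24e-04). Bhmt (0.84), Bhmt2 (0.60), Dmgdh (0.46), Acsf2 (0.65), Fabp3 (0.60), Plin2 (0.50), Dnmt3l (1.08), Cdx2 (0.70), Hexa (0.42), Tbx18 (0.61), Ccn2 (0.80) and Lfng (-0.49) were among the 45.

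The difference between the experiments was tested as an interaction, and 0 genes were called by limma, with 693 genes (4.27%) at an unadjusted p under 0.05 and 0 called by limma-voom. The smallest adjusted p was 0.877, so a difference was not detectable for single genes, which does not show that the responses were alike. Krt18 had 1 of the largest differences, 1.25 in the first and 0.25 in the second experiment (difference 1.00, SE 0.27, adjusted p = 0.877), where it was at 6.0, 6.25 and 5.72 CPM in vehicle and 6.11, 10.1 and 5.86 CPM in BPS. The high value belonged to BPS replicate 2 of that experiment, whose slope on transcript length was -0.27, and without that library Krt18 was the 1 gene called for a difference. Crabp2 fell in the first experiment (-0.75) and stood at 0.11 in the second (difference -0.85, SE 0.20), Pik3r3, a regulatory subunit of PI3K, rose by 0.61 in the first and stood at 17.8, 15.5 and 15.7 CPM in vehicle and 20.4, 12.8 and 16.7 CPM in BPS in the second, and Thbs1 went from 2.11 to 0.44. Abcg1, a cholesterol exporter, changed by -0.38 in the first experiment, a call lost without vehicle replicate 1 or 2 or BPS replicate 3, and by 0.12 in the second. None of these differences passed the test, while with array weights Krt18, Abcg1, Krt8 and Vim were called for one.

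**Figure D5:**
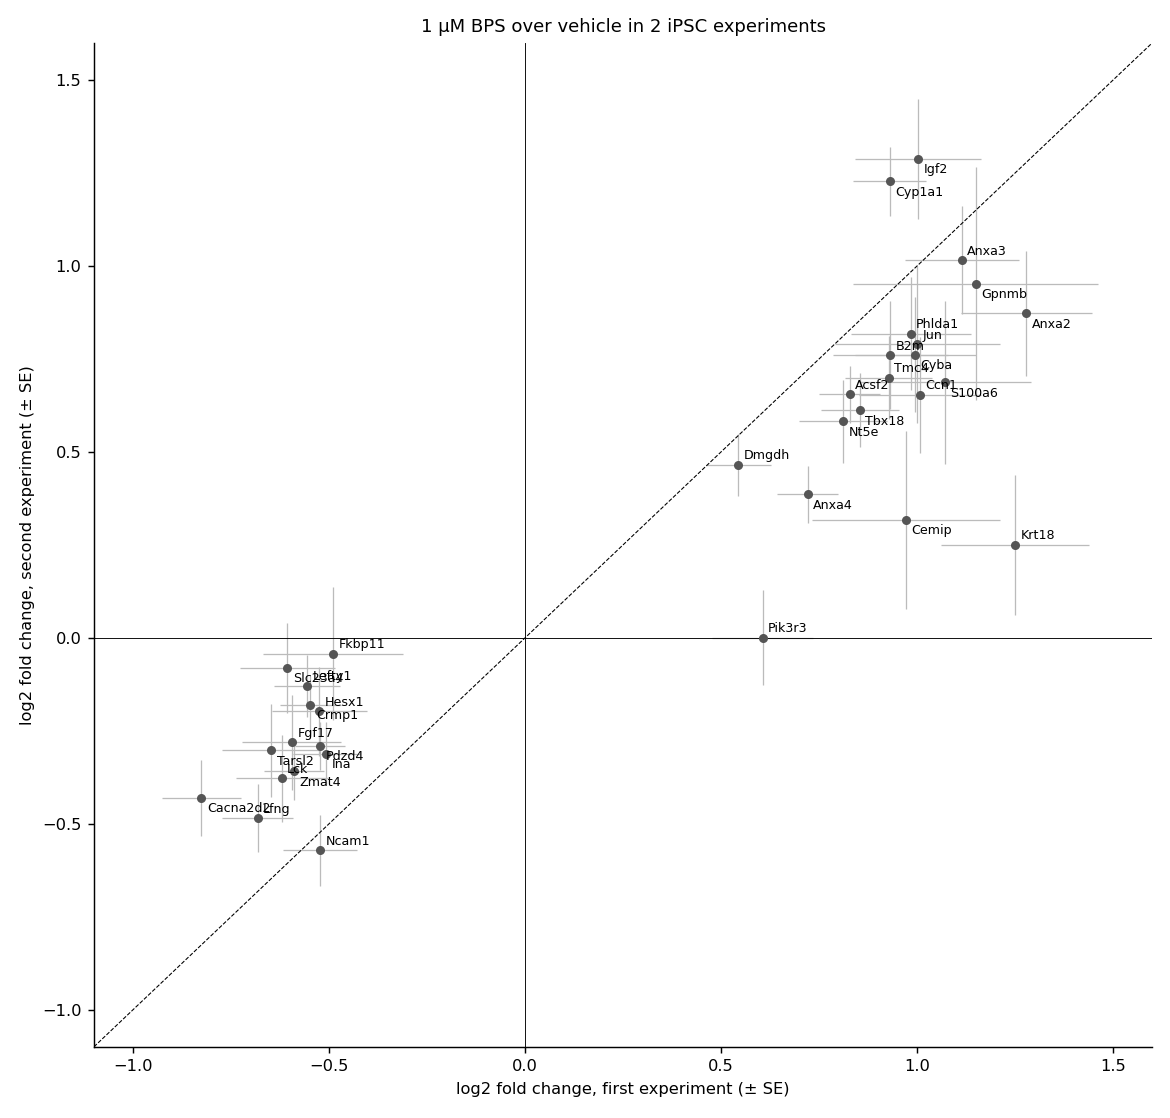
Log2 fold change of 1 μM BPS over vehicle, with standard errors, in the second experiment (vertical axis) against the first (horizontal axis) for 34 genes chosen by their change or adjusted p in the first experiment, with a dashed line where both are equal. Of the 34 points 31 lie nearer 0 on the vertical axis, as a choice of genes by the first experiment alone would favour, and Igf2, Cyp1a1 and Ncam1 lie farther from 0.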

How the data were processed

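RNA was made into strand-specific poly(A) libraries. Per the labels and the study's methods, the authors aligned reads to mm10 with Rsubread and used edgeR for TMM scaling. The deposited values were log2 CPM with a small constant added. Of the values at least 99.9% came out as whole reads (tolerance 0.05), and limma-voom on these reads was an alternative. The CPM of 0.0313 was the added constant. Genes with at least 0.5 CPM in 3 libraries were tested on the deposited log2 values with limma 3.58.1 (mean-variance trend) in R 4.3.3 over all 4 groups of the first iPSC experiment, with Benjamini-Hochberg adjustment. The 2 experiments were fitted together for the interaction. The tests were checked on simulated data. Genes were named by size of change, adjusted p, membership of lists, distance of BPS replicate 2 and the interaction. The members and lists were chosen with earlier results of these data known. Other settings covered the added CPM, filters, scaling, libraries left out, array weights and, chosen after seeing the data, the length trend, thinned reads and the structured RNA share. A few genes are not reported here.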

Additional observations from a re-analysis of the deposited data

How the results depend on the processing

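The numbers of called genes moved with the libraries and the model. The fit of the 6 libraries alone called 723 genes (496 higher, 227 lower), array weights 4265 (2064 higher, 2201 lower), the removal of the length trend 1990 with 809 lower, and its removal together with BPS replicate 2 left out 2519 (1189 higher, 1330 lower). Upper-quartile scaling called 298 lower genes. Leaving out 1 library at a time gave 602 to 2134 calls, 461 to 1094 higher and 141 to 1040 lower. The cause of these shifts was not tested. Without a filter 1114 genes were called, at 5 CPM or more 1120, and with limma-voom 1184. A replicate block gave 1412 calls (914 higher), and since same-numbered libraries did not deviate together (r = -0.0908, -0.00196 and -0.000413), the numbers were not taken as pairs. For the difference between the experiments array weights called 4 genes (Krt18, Abcg1, Krt8 and Vim), and leaving out 1 library 0 to 1. Of the 146 named genes called, 95 kept the call under all 21 alternatives, and all 146 kept their direction. Dst, not called here (-0.05), ranged from -0.167 to 0.15 (the latter without BPS replicate 2) when 1 library was left out and stood at 0.13 with the length trend removed as well.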
